A study of Saccharomyces cerevisiae S288C with 6 samples.

Results

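Glutamate and glutamine carry most of the nitrogen that yeast cells build into other molecules, and 9 genes of their metabolism were examined out of 5449 Saccharomyces cerevisiae genes with a probe set on the array: GDH1, GDH3, GLN1, GLT1, GDH2, GAD1, UGA4, UGA1 and UGA2. They were chosen by name, from the enzymes that form and break down glutamate and glutamine and the 4-aminobutyrate (GABA) shunt, with no threshold on their signals or changes. Earlier results of these data were known when the choice was made. Each of the 9 matched exactly 1 probe set that is not marked as shared between sequences, so no choice between probe sets was needed.

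The arrays came from S288C, the reference laboratory strain of budding yeast, grown in synthetic dextrose medium buffered with MOPS at pH 7.0. At an optical density of 0.2 the 3 treated cultures received plakortide F acid (PFA), an antifungal endoperoxide from marine sponges, at its IC50 of 0.62 ug/ml, and the 3 control cultures received the solvent at 0.25% DMSO. All were harvested at an optical density of 0.5. The time each culture needed, and whether the PFA cultures also held DMSO, are stated neither in the labels nor in the design text, so the compound, its solvent and the length of growth cannot be told apart.

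In this pathway ammonium enters organic form in 2 ways. NADPH-dependent glutamate dehydrogenase joins ammonium to 2-oxoglutarate, while glutamine synthetase adds ammonium to glutamate and glutamate synthase then shares the amide nitrogen of glutamine with 2-oxoglutarate. In the reverse direction NAD-dependent glutamate dehydrogenase releases ammonium, and the GABA shunt takes glutamate to succinate by way of GABA and succinate semialdehyde. In yeast, several of these genes are known to answer to the quality of the nitrogen source through GATA-type transcription factors.

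Each array gave 1 signal intensity per probe set, scaled by the authors to a trimmed mean (2% of probe sets left out at each end) of 1001 on all 6 arrays. The number of arrays limits the precision. Between 98.1% and 98.7% of the yeast probe sets on an array lay above a background signal of 20.0, the 95th percentile of the probe sets for another organism, and all 9 genes were above it on every array. Log2 signals correlated at 0.991 to 0.994 between arrays of a group and at 0.923 to 0.929 between groups. Ratios of 3' to 5' signal, a measure of RNA integrity, ran from 1.20 to 1.28 in DMSO against 1.19 to 1.25 in PFA for ACT1, and from 2.13 to 2.40 against 2.13 to 2.29 for SPT15. For WBP1 they spread more widely in DMSO (1.86 to 2.70, replicate 1 highest) than in PFA (2.25 to 2.34).

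Setting treated against control cultures asked how these genes respond to a growth-inhibiting dose of the compound. Of the 9 genes, 5 rose in PFA (GDH1, GDH3, GAD1, UGA1 and UGA2) and 2 fell (GLT1 and UGA4), at a limma adjusted p under 0.05. GLN1 and GDH2 did not pass. Changes were common on these arrays, with 62.0% of the 5356 genes tested called, 30.3% higher and 31.8% lower, so 7 of 9 is close to the share among all genes. The split of all genes moved with the scaling, to 1426 higher and 1971 lower after median centring and 1512 and 1783 after quantile normalization, from 1622 and 1701. Requiring at least 1.5-fold as well left 4 of the 9, UGA2, UGA1, GLT1 and UGA4, where 23.7% of all genes met that rule. The median log2 change was 0.23 over the 9 genes and -0.02 over all genes tested. In 8 of the 9 the PFA signals did not overlap the DMSO signals, 6 higher and 2 lower. Over all genes 66.6% had such separate groups, 32.4% higher and 34.2% lower. RNA came from whole cultures, so a change in fewer cells and a smaller amount of RNA per cell cannot be told apart.

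**Figure D1:**
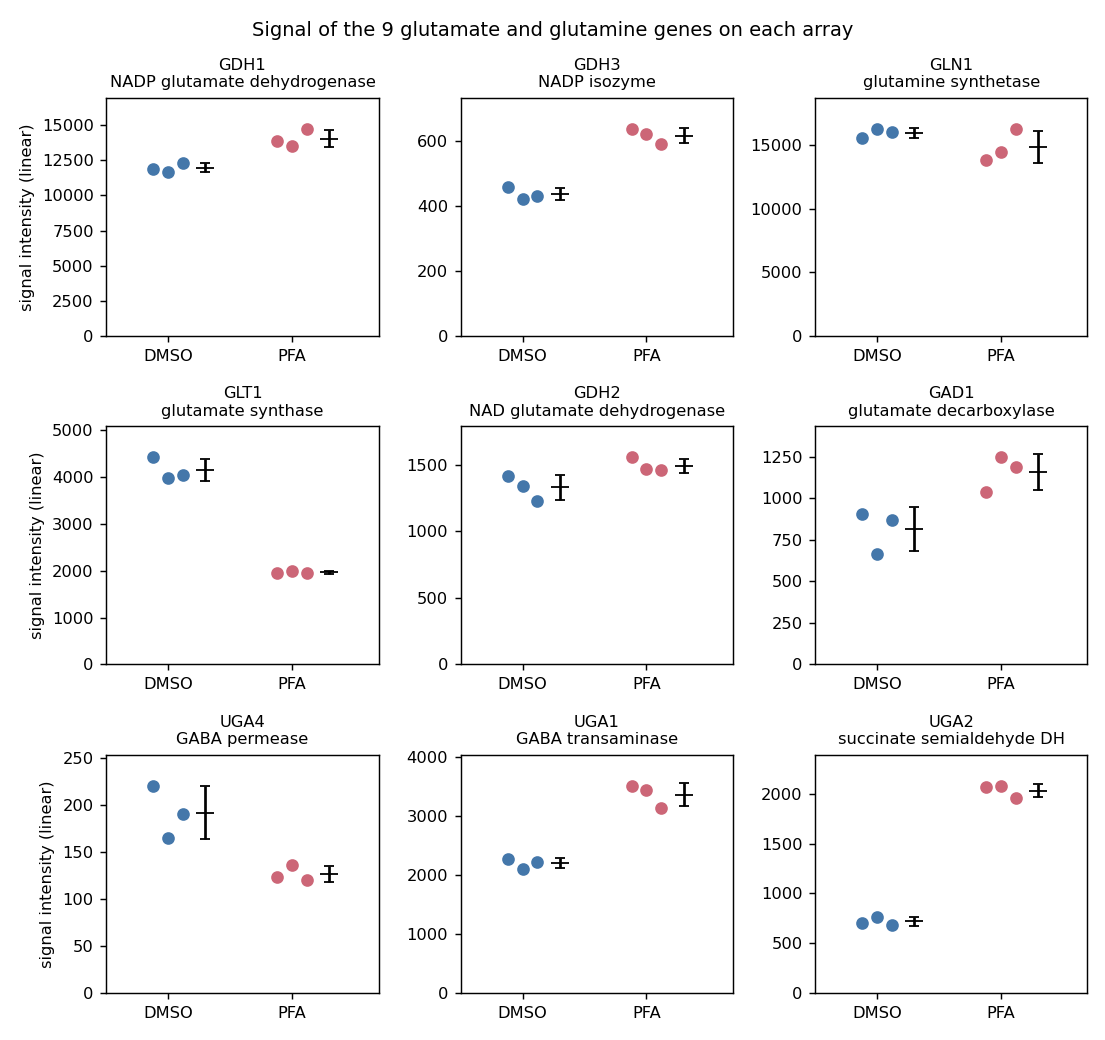
Signal intensity (linear scale, each vertical axis from 0) of each of the 9 genes on the 3 DMSO arrays (blue) and the 3 PFA arrays (red), in replicate order 1 to 3, with the mean and SD of each group in black. The groups overlap in GLN1 alone of the 9, and UGA2 and GLT1 have the widest separation relative to their spread.

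Among the genes that assimilate ammonium, GLT1 (YDL171C) moved most. It encodes NADH-dependent glutamate synthase, the enzyme that makes glutamate from glutamine and 2-oxoglutarate. Its signals were 4422, 3993 and 4041 on the DMSO arrays and 1951, 1993 and 1948 on the PFA arrays. The PFA values lay within a narrow band, all under the lowest DMSO value. The fall was 2.11-fold (95% interval 1.90 to 2.35, log2 change -1.08 ± 0.07 SE, limma adjusted p = 6.51e-08), and 2.80% of the genes tested fell further.

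GLN1 (YPR035W), which encodes glutamine synthetase, the partner of glutamate synthase in that cycle, read 15510, 16249 and 16033 in DMSO and 13807, 14468 and 16241 in PFA. The groups overlapped, since PFA replicate 3 stood as high as the DMSO arrays while the other two were lower. The log2 change of -0.11 ± 0.06 (SE, adjusted p = 0.128 by limma) had a 95% interval of -0.23 to 0.02, so a fall of more than 1.17-fold lay outside the interval. Without PFA replicate 3 the change was -0.17 (limma adjusted p = 0.00801) and passed the threshold, and it also passed after each array was centred on its median (-0.17, limma adjusted p = 0.0240). Quantile normalization turned the sign to 0.07 (limma adjusted p = 0.225), so no direction is given for this gene.

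GDH1 (YOR375C) encodes the main NADPH-dependent glutamate dehydrogenase of cells growing on glucose. Its signals were 11855, 11704 and 12330 in DMSO and 13892, 13541 and 14733 in PFA. Every PFA array was above every DMSO array, by a small amount. The rise was 1.17-fold (95% interval 1.09 to 1.26, limma adjusted p = 0.00117), or 0.23 on the log2 scale. It was 0.39 after quantile normalization and 0.17 after median centring (limma adjusted p = 0.00849).

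GDH3 (YAL062W) encodes the second NADPH-dependent isozyme, known in yeast from growth on non-fermentable carbon sources. It read 457, 422 and 431 in DMSO and 636, 621 and 591 in PFA, again with no overlap. The rise was 1.41-fold (95% interval 1.24 to 1.60, log2 change 0.50 ± 0.08 SE, limma adjusted p = 0.000253). GDH1 and GDH3 are close paralogs, and how far each probe set also reads the other transcript was not tested.

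GDH2 (YDL215C) encodes the NAD-dependent glutamate dehydrogenase, which breaks glutamate down to ammonium and 2-oxoglutarate. Signals were 1418, 1342 and 1230 in DMSO and 1554, 1464 and 1457 in PFA. The lowest PFA array was just above the highest DMSO array. The log2 change of 0.17 ± 0.08 (SE, limma adjusted p = 0.0896) did not pass, with a 95% interval of -0.01 to 0.34. Without DMSO replicate 1, the highest of the controls, it was 0.21 (limma adjusted p = 0.0443) and passed. It was smaller without DMSO replicate 3, the lowest control (0.11, limma adjusted p = 0.294), and after centring on the median (0.11, limma adjusted p = 0.269).

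The 3 enzymes of the GABA shunt all rose, with the largest change at the last step. GAD1 (YMR250W), glutamate decarboxylase, makes GABA from glutamate. It read 907, 661 and 871 in DMSO and 1038, 1244 and 1189 in PFA, the widest spread of the 9 genes in DMSO, where replicate 2 was low and the coefficient of variation was 16.4%. The groups did not overlap, and the rise was 1.43-fold (95% interval 1.20 to 1.71, limma adjusted p = 0.00223). Without DMSO replicate 2 the log2 change was 0.38 in place of 0.52 and still passed.

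UGA1 (YGR019W) encodes GABA transaminase, which passes the amino group of GABA to 2-oxoglutarate and so returns glutamate. It read 2270, 2110 and 2222 in DMSO and 3514, 3443 and 3140 in PFA. All PFA arrays were well above the controls. The rise was 1.53-fold (95% interval 1.37 to 1.71, limma adjusted p = 1.50e-05).

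UGA2 (YBR006W) encodes succinate semialdehyde dehydrogenase, which delivers the carbon of GABA to the TCA cycle as succinate. Its signals were 705, 764 and 684 in DMSO and 2063, 2079 and 1954 in PFA. The lowest PFA value was far above the highest DMSO value. The rise was 2.83-fold (95% interval 2.52 to 3.19, log2 change 1.503 ± 0.08 SE, limma adjusted p = 8.64e-09), the largest of the 9, and 2.71% of the genes tested rose further.

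UGA4 (YDL210W), which encodes a GABA permease, went the other way from the shunt enzymes. It read 220, 165 and 191 in DMSO and 123, 136 and 120 in PFA, against the background signal of 20.0. Each PFA array was under each DMSO array. The fall was 1.51-fold (95% interval 1.20 to 1.89, log2 change -0.59 ± 0.15 SE, limma adjusted p = 0.00426), with the largest standard error of the 9.

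**Figure D2:**
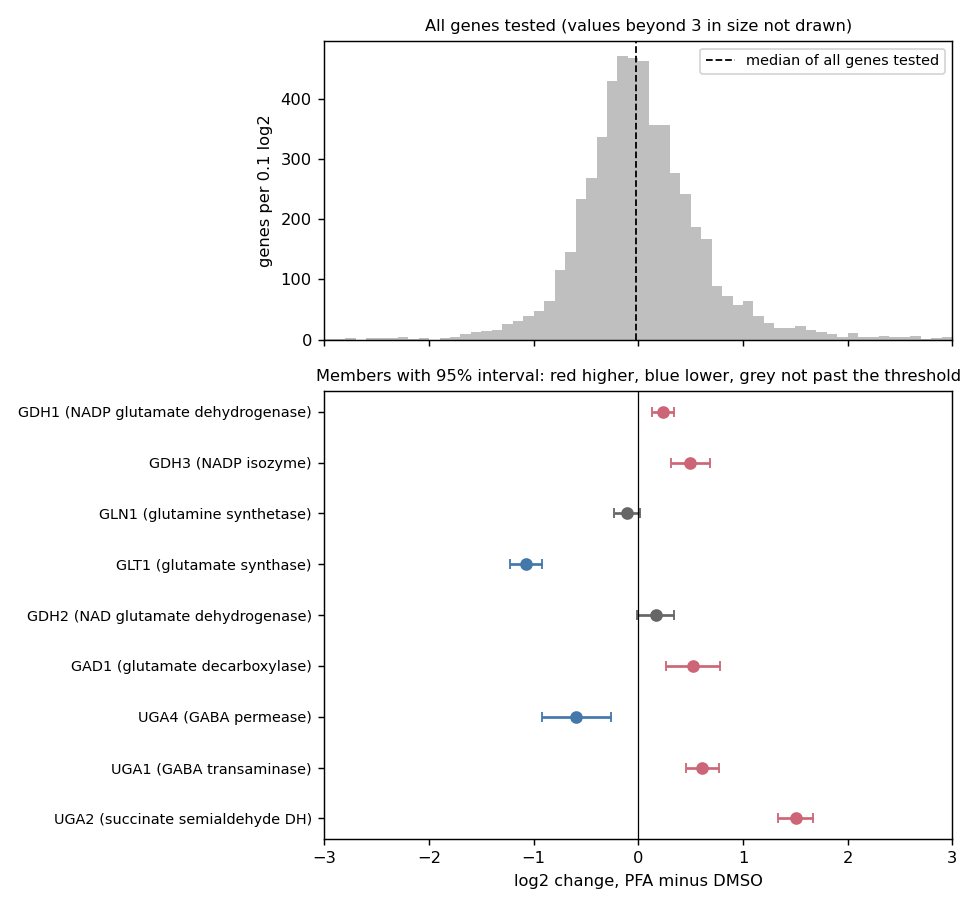
Upper panel, distribution of the log2 change (PFA minus DMSO) of all genes tested in bins of 0.1, with the median dashed and 43 genes beyond 3 in size not drawn. Lower panel, log2 change of each of the 9 genes with its 95% limma interval. UGA2 at 1.503 and GLT1 at -1.08 lie toward the edges of the distribution and GLN1 and GDH2 have intervals that cross 0.

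Because arrays share one scale for all probe sets, the change of a gene can be set against that of another within each array. The log2 ratio of GLN1 to GLT1, relative to its DMSO mean, was -0.13, 0.08 and 0.05 in DMSO and 0.88, 0.92 and 1.12 in PFA. The 2 enzymes of the cycle thus changed unequally on every PFA array, by 0.97 on the log2 scale (two-sided exact permutation p = 0.1, the smallest that 3 against 3 arrays allow). For GDH3 to GDH1 the values were 0.08, -0.02 and -0.06 in DMSO and 0.33, 0.33 and 0.14 in PFA. The isozyme ratio was higher in PFA by 0.26 (exact permutation p = 0.1) without overlap, but by 0.05 after quantile normalization (exact permutation p = 0.5). GLN1 read 13807 to 16249 and GDH1 11704 to 14733, where the highest signal of an array was 21943 to 24972. Whether changes at such high signals are read in full, in these ratios or in the genes alone, was not tested.

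The ratios of the other two pairs overlapped between groups. GDH2 to GDH1, the glutamate-degrading against the main glutamate-forming dehydrogenase, differed by -0.06 (exact permutation p = 0.5), and by -0.26 after quantile normalization (exact permutation p = 0.1). Leaving out single arrays moved it from -0.14 without DMSO replicate 3 to -0.01 without DMSO replicate 1 or PFA replicate 3. UGA1 to GAD1 differed by 0.09 (exact permutation p = 0.5), with single arrays from -0.13 to 0.22 in DMSO and from -0.05 to 0.31 in PFA, and the sign turned without PFA replicate 1 (-0.01). No pair could reach a p under 0.05 in this design. A ratio shows only whether 2 genes changed unequally.

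**Figure D3:**
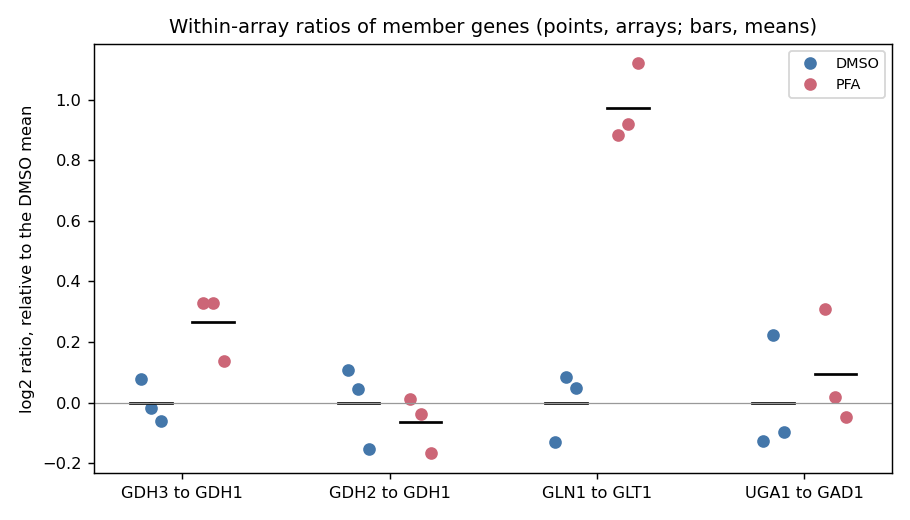
Log2 ratio of 2 member genes within each array, relative to the mean of the 3 DMSO arrays, for 4 pairs. Points are arrays (DMSO blue, PFA red) and bars are group means. The PFA points lie above all DMSO points for GLN1 to GLT1 and GDH3 to GDH1, and overlap them for the other two pairs.

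Genes around the pathway were examined in 9 further lists of 86 genes, 84 of them tested. Of these 38 rose, 18 fell and 28 did not pass, so 66.7% were called against 62.0% of all genes. The transcription factors that act on the pathway came first. Of 7 regulators of GABA and nitrogen-source genes, 5 rose and 2 did not pass (median log2 change 0.43). DAL80, which encodes a GATA-type repressor, rose from 55.0 ± 7.25 to 203 ± 4.49 (SD, n = 3), a 3.71-fold change (limma adjusted p = 1.29e-06). UGA3, the activator of the GABA genes, rose from 784 ± 137 to 1452 ± 155 (SD, n = 3), or 1.86-fold (limma adjusted p = 4.62e-05). The GATA activator genes GAT1 and GLN3 rose 1.44-fold and 1.24-fold, and URE2, whose product restrains Gln3, rose 1.34-fold. The GATA repressor gene GZF3 had a log2 change of 0.17, and DAL81, which encodes a co-activator that works with Uga3, one of -0.07, and neither passed.

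Of 10 other regulators, 3 rose and 7 did not pass (median log2 change 0.10). RTG3 and RTG2, of the retrograde pathway that matches 2-oxoglutarate supply to mitochondrial state, rose 1.27-fold and 1.25-fold. RTG1 and MKS1, of the same pathway, had log2 changes of 0.27 and 0.13 that did not pass. HAP5, for a subunit of the CCAAT-binding complex, rose 1.16-fold (limma adjusted p = 0.0458). The genes of its other subunits, HAP2, HAP3 and HAP4, had log2 changes of -0.02, -0.20 and -0.40, and none passed.

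Genes that supply 2-oxoglutarate, the carbon skeleton of glutamate, moved both ways. Of 13 tested, 5 rose, 3 fell and 5 did not pass (median log2 change 0.13). IDP2, for cytosolic NADP-dependent isocitrate dehydrogenase, rose 2.12-fold and ODC1, for a mitochondrial carrier of 2-oxoglutarate and related acids, rose 2.04-fold. ACO1, for aconitase, fell 2.11-fold, from 8556 ± 471 to 4058 ± 243 (SD, n = 3). IDH2, for a subunit of NAD-dependent isocitrate dehydrogenase, fell 1.69-fold. IDH1, for the other subunit of that enzyme, had a log2 change of -0.03 that did not pass (limma adjusted p = 0.631). Of the 5 genes for the TCA cycle steps from 2-oxoglutarate to succinate, the stretch that the GABA shunt goes around, 3 rose and 2 did not pass. LSC2, for a subunit of succinyl-CoA ligase, rose 2.40-fold, KGD2 1.21-fold and LSC1 1.16-fold. KGD1 and LPD1, which encode other subunits of the 2-oxoglutarate dehydrogenase complex, had log2 changes of 0.05 and 0.07 that did not pass.

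Genes listed under aminotransferases, enzymes that take amino groups from glutamate or pass them to its carbon skeleton, moved both ways. Of the 12, 4 were higher and 5 lower (median log2 change -0.06). Whether each product is an active enzyme was not examined. ARG8, SER1 and HIS5 were among the 5 that fell, by 1.59-fold, 1.36-fold and 1.17-fold. In the same list ALT2 and ARO8 rose 1.58-fold and 1.17-fold. AAT1, AAT2 and BAT1 did not pass, with log2 changes of -0.14, 0.12 and 0.02. CAR2, for ornithine transaminase of arginine breakdown, rose 8.51-fold and ARO9, an aromatic aminotransferase gene, rose 2.77-fold. BAT2, for the cytosolic branched-chain aminotransferase, fell 1.97-fold and ALT1, for alanine transaminase, fell 1.80-fold. In the 5 genes between proline and glutamate, both genes of proline breakdown rose, PUT1 by 26.1-fold and PUT2, whose product forms glutamate, by 2.15-fold, from 1027 ± 21.5 to 2218 ± 286 (SD, n = 3). Of the proline synthesis genes, which draw on glutamate, PRO2 rose 1.17-fold, PRO3 fell 1.17-fold and PRO1 had a log2 change of -0.10 (limma adjusted p = 0.326).

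Of 15 genes for enzymes that use glutamine as a nitrogen donor, 5 rose and 6 fell (median log2 change -0.05). The purine synthesis genes ADE4 and ADE6 fell 2.72-fold and 1.83-fold, ADE4 from 5617 ± 438 to 2077 ± 280 (SD, n = 3). URA2, of pyrimidine synthesis, fell 1.39-fold. ASN2, an asparagine synthetase gene, rose 1.38-fold. Among 6 genes that charge tRNA with glutamate or glutamine, PET112 rose 1.27-fold and GTF1 1.25-fold, both of mitochondrial amidotransferase, and GLN4, for cytosolic glutaminyl-tRNA synthetase, fell 1.16-fold. GUS1, MSE1 and HER2, the last for another subunit of that amidotransferase, did not pass, with log2 changes of -0.06, 0.12 and 0.10.

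Of 11 transporter genes for glutamate, glutamine, GABA and ammonium, 8 rose and 2 fell (median log2 change 0.38). The ammonium permease genes MEP1, MEP3 and MEP2 rose 5.92-fold, 1.69-fold and 1.30-fold, MEP1 from 595 ± 30.1 to 3527 ± 233 (SD, n = 3). PUT4, a proline permease gene whose product also carries GABA, rose 2.21-fold, whereas UGA4 fell. AGC1, for the mitochondrial aspartate-glutamate carrier, fell 1.64-fold. Lists share no gene with the 9, and their counts are read beside the share of all genes called.

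**Figure D4:**
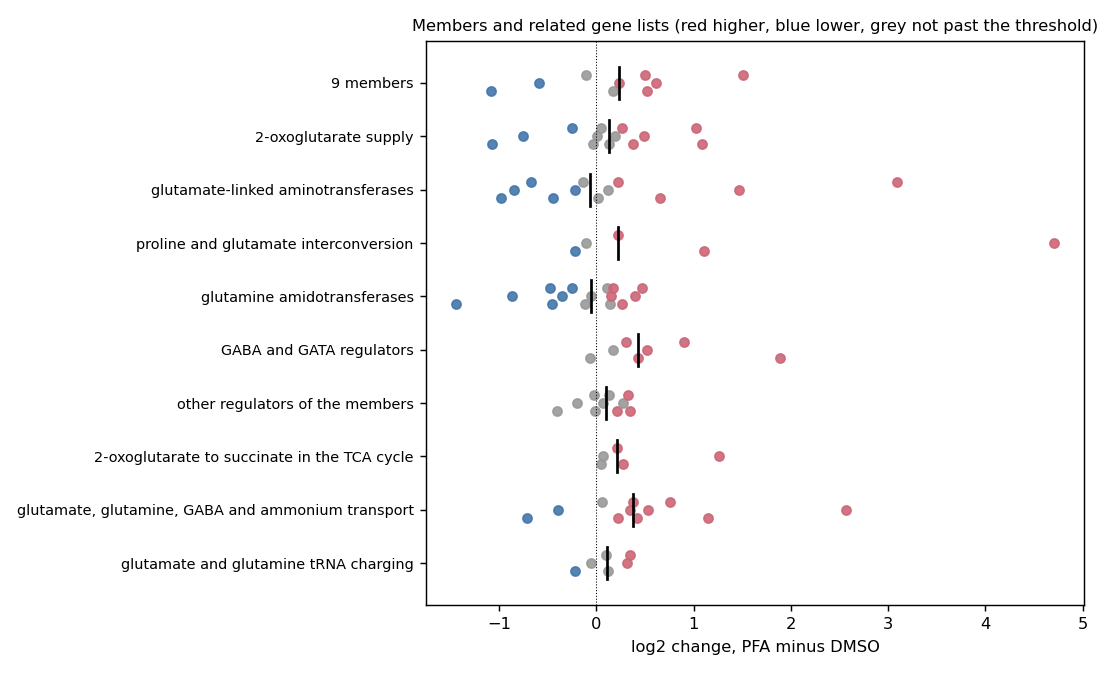
Log2 change (PFA minus DMSO) of each tested gene in the 9 members and the 9 related lists. Red points passed as higher, blue as lower and grey did not pass, and the black bar is the list's median. Most lists hold both red and blue points, and PUT1 at 4.70 and CAR2 at 3.09 lie farthest to the right.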

How the data were processed

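RNA of 6 cultures was hybridized to 1 Affymetrix yeast array each. Groups and replicate numbers came from the titles. Titles describe biological replicates, whose spread the p-values measure. The table deposited by the authors holds signal intensity on a linear scale. GCOS 1.1 is named in the submitters' processing notes, with neither the summary method nor the background correction. The deposited intensity values already had a common trimmed mean, so a change shared by all transcripts would be hidden.

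Of 10928 probe sets, 5498 matched a single yeast gene by Entrez ID, from the array's annotation to RefSeq's gene table (assembly R64). The brightest probe set above background stood for a gene, which gave 5356 genes, all 9 members among them. Log2 was taken without a pseudocount and tested with limma 3.58.1 in R 4.3.3 (two-sided, eBayes with trend, no replicate block, Benjamini-Hochberg adjustment across all tested genes), and the procedure was tested on simulated data. Folds are ratios of geometric means. Ratios of 2 genes were tested by exact permutation over arrays. Figures were drawn with matplotlib 3.10.9.

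The members and lists were chosen with earlier results of these data known. Named were all 9 members, every gene of a further list with up to 7 genes, and up to 4 changed genes of longer lists. HAP2, HAP3, HAP4, RTG1, MKS1, IDH1, MEP2 and the remaining aminotransferase genes were named after their values were seen. Some listed genes are not reported here. Sequences were not used here, so the planned motif search was not run. Neighbouring genes were taken from the gene order in RefSeq's table, and no coordinates are reported. The fit was repeated without each array in turn, without trend, with the replicate number as a block, after quantile normalization or median centring, with pseudocounts of 16 and 64, with all probe sets, and with the filter dropped or made stricter. Deviations of same-numbered DMSO and PFA arrays correlated at -0.05, -0.09 and 0.16, and those of differently numbered arrays at -0.105 to 0.164. The numbers were therefore not taken to pair them.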

Additional observations from a re-analysis of the deposited data

How the results depend on the processing

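Over 15 alternatives, UGA2, UGA1, GLT1 and GDH1 kept their direction and passed the threshold in each, and GDH3, GAD1 and UGA4 in the 14 that tested them. The stricter filter, which kept the brighter probe sets of yeast, removed GDH3, GAD1 and UGA4 and left 3 members higher, 1 lower and 1893 of 2724 genes called, by its construction. GLN1 turned to 0.0705 after quantile normalization, and GLN1 and GDH2 passed under the settings given beside them, for which the cause was not tested. With the replicate block 5 members were higher and 2 lower, as without it, and 3366 genes were called in place of 3323. Leaving out single arrays gave 5 to 6 members higher, 2 to 3 lower and 2965 to 3265 genes called. The UGA1 to GAD1 ratio went from -0.0147 without PFA replicate 1 to 0.2056 without DMSO replicate 2, and its exact permutation p stayed at 0.2 or above, so it has no settled direction. With 2 arrays in a group the exact test allows no p under 0.1, and in the paired form none under 0.25. Precision was lowest for UGA4, whose signals lay nearest to background.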

Other observations

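The protein-coding genes on either side of the 9 members were read as a description, chosen after their values were seen. Of 18 neighbours 15 were tested, and 7 rose, 3 fell and 5 did not pass, where 62.0% of all genes were called. GLT1 and UGA3 are neighbours on opposite strands by their names, YDL171C and YDL170W, and GLT1 fell by 1.08 on the log2 scale while UGA3 rose by 0.90. PAR32, on the other side of GLT1, which encodes a regulator of ammonium permeases, rose by 1.04. RCR1, next to UGA2, rose by 1.56, beside 1.503 for UGA2, and DSF2 on its other side fell by 0.23. UGA4 and its neighbour YDL211C both fell, by 0.59 and 0.65, and CWC2 on the other side had a change of -0.10 that did not pass. Where a member and its neighbour were both called, 5 pairs moved in the same direction and 4 in opposite directions.

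The genes closest to UGA2 over the 6 arrays, by the root-mean-square difference of log2 signal after centring on the DMSO mean, were THI13 (0.04), IMP2 (0.05) and RPH1 (0.06). THI13 belongs to a family of near-identical thiamine synthesis genes, so its value can mix copies. Those closest to GLT1 were HTZ1 (0.04), which encodes a histone H2A variant, IRC8 (0.05) and AIM29 (0.05). This measure follows the difference between the groups and says nothing of shared control.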
